A study of Mus musculus with 6 samples.

Results

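The IFIT family (interferon-induced proteins with tetratricopeptide repeats) was followed in RNA-seq of sciatic nerve, the main nerve of the hindlimb, taken at P4. Its 6 members, *Ifit1*, *Ifit2*, *Ifit3*, *Ifit3b*, *Ifit1bl1* and *Ifit1bl2*, were picked by gene symbol from the 59485 genes of the deposited table, and each had 1 row. The series holds 6 libraries from separate animals, 3 labelled control (wild-type) and 3 labelled mutant (*Ht-PA-Cre; Adar1 fl/fl; R26R*). In the mutants, Cre under the human tissue plasminogen promoter acts in neural crest cells and their derivatives, Schwann cells included, to delete floxed *Adar1*, which encodes an enzyme that edits adenosine in double-stranded RNA, and R26R marks the recombined cells with YFP. Cells of the nerve that do not derive from the neural crest, such as endothelial and blood cells, keep the gene, and in bulk tissue fewer cells of a type cannot be told apart from less RNA per cell.

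Transcription of IFIT genes is low in resting cells and rises when type I interferon acts on its receptor, or when a cell senses foreign or double-stranded RNA. Interferon signals through the kinases JAK1 and TYK2 to a complex that holds STAT2 and IRF9, which binds an interferon-stimulated response element (ISRE) in the promoters of its targets. The proteins have no known enzyme activity. IFIT1 binds RNA whose 5′ cap lacks ribose methylation and blocks its translation. IFIT2 binds other RNAs, and IFIT proteins are also known to bind the initiation factor eIF3. *Ifit3b* is a near copy of *Ifit3*, and *Ifit1bl1* and *Ifit1bl2* are relatives of *Ifit1* named from their sequence alone.

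The libraries held 50.9 to 78.3 M reads counted on genes, and the first principal component, with 57.5% of the variance, separated the labels. *Adar* itself was higher in the mutant-labelled libraries (11768, 9311 and 9773, against 1602, 2066 and 1133 in the control-labelled libraries), and its log2 fold change was 2.72 with a standard error (SE) of 0.20 (adjusted p = 4.1e-05 by limma). Each gene has a single value in the table, which does not separate the deleted segment from the rest. Since this goes against the deletion, groups are called control-labelled and mutant-labelled, and every direction is drawn from the labels.

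By their deposited spans, all 6 members lie in 1 cluster of 112 kb on mouse chromosome 19 (build mm10, from 34550694 to 34662425). Their order is *Ifit2*, *Ifit3*, *Ifit1bl1*, *Ifit3b*, *Ifit1bl2* and *Ifit1*. The end of the cluster is that of the *Ifit1bl1* span, whereas *Ifit1* ends at 34650009 and the GENCODE model of *Ifit1bl1* at 34601956. *Ifit1bl1* and *Ifit1bl2* are on the minus strand and the others on the plus strand. The promoters are shown because the members moved together and an ISRE is the element known to drive them. The sequences are RefSeq's (GRCm38.p6), from 250 bases before to 50 after the transcription start, 5′ to 3′ on the strand of the gene. Both strands were searched, with overlapping matches counted separately. The capitals mark GAAANNGAAA, the core of an ISRE, or TTTCNNTTTC, the same core on the other strand. The windows are chr19:34640639-34640938 (plus strand) for *Ifit1*, chr19:34583279-34583578 (plus strand) for *Ifit3*, chr19:34607707-34608006 (plus strand) for *Ifit3b* and chr19:34550444-34550743 (plus strand) for the first of 2 *Ifit2* starts.
Ifit1: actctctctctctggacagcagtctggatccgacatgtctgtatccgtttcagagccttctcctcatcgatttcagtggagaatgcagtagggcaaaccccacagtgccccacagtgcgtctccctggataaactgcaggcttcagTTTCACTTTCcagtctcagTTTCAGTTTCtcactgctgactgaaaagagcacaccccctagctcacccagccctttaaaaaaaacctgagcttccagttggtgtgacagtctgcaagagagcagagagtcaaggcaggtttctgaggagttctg
Ifit3: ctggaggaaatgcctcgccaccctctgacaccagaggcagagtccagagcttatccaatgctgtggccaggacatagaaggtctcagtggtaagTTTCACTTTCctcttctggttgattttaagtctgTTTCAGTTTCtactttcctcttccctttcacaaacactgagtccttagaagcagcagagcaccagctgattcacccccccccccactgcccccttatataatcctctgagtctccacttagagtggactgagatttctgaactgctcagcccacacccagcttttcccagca
Ifit3b: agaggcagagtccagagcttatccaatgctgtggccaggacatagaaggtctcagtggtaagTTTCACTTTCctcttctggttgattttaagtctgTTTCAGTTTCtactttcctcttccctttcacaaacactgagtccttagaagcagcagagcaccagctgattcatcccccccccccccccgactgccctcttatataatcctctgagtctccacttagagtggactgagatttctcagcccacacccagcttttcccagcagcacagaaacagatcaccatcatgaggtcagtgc
Ifit2: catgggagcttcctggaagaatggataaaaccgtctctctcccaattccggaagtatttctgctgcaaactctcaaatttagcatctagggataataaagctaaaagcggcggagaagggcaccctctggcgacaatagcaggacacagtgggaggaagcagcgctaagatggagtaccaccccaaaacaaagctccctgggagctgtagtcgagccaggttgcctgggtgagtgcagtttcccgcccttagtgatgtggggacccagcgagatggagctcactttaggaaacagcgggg

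The core was found in 5 of the 6 members and in 6 of their 9 windows, whereas 3.44% of the 32851 windows of all genes held it. A second match, which 0.225% of all windows held, was found in *Ifit1*, *Ifit3*, *Ifit3b* and the first window of *Ifit1bl2*. In *Ifit3* and *Ifit3b*, whose windows are identical at 75.9% of aligned positions, the first letters of the 2 matches were 34 bases apart in both. In *Ifit1* they were 19 bases apart, and the nearer match ended 76 bases before the start. *Ifit1* and *Ifit1bl2* are transcribed away from each other from starts 146 bases apart, so their windows share 245 bases and the same 2 matches. Each of the 2 *Ifit1bl1* windows held 1 match. Neither *Ifit2* window held these letters, a statement about 300 bases only. A match is a run of letters and not a measured binding site.

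All 6 members rose in the mutant-labelled libraries, by 2.92 to 8.05 on the log2 scale. Each passed the threshold (unadjusted p at or under 0.05 and at least 2-fold by limma on log2 of the normalised read count plus 1), as 13.9% of the 25802 tested genes did in this direction. With an adjusted p at or under 0.05 in its place, 6 of 6 were called, beside 11.5% of tested genes. Their median log2 fold change was 7.18, beside 0.03 for all tested genes. For all 6, the lowest mutant-labelled value lay above the highest control-labelled value, which held for 25.9% of tested genes. 5 members rose by more than 5.5 on the log2 scale, and *Ifit2* stood apart with the smallest change.

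*Ifit1* (GSMG0019623, plus strand, 34640879 to 34650009), which encodes the cap sensor, had normalised read counts of 332, 1237 and 78.6 in control-labelled replicates 1 to 3. The mutant-labelled replicates had 84049, 59954 and 85331. The groups lay far apart, the lowest mutant-labelled value being 48.5 times the highest control-labelled one. The log2 fold change was 7.88 (SE 0.80, adjusted p = 0.000181 by limma), the 17th largest of all tested genes.

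*Ifit3* (GSMG0019620, plus strand, 34583527 to 34589036) took the highest values of the family in the mutant-labelled libraries. Its values were 511, 3690 and 266 in the control-labelled and 187627, 122474 and 180023 in the mutant-labelled libraries. Control replicate 2 was the high control here too, yet every mutant-labelled value was at least 33.2 times larger. The log2 fold change was 7.66 (SE 0.80, adjusted p = 0.000211 by limma).

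*Ifit3b* (GSMG0019621, plus strand, 34607929 to 34613401) had 118, 742 and 87.4 in the control-labelled libraries. The mutant-labelled libraries had 61553, 41080 and 57385. With a log2 fold change of 8.05 (SE 0.68, adjusted p = 7.02e-05 by limma), it had the largest change of the family and the 15th largest of all tested genes. The longest transcripts of *Ifit3* and *Ifit3b* are identical at 81.2% of aligned positions. Of all stretches of 130 bases, the read length, 22.3% of those in *Ifit3* also occur in *Ifit3b*, and 19.2% of those in *Ifit3b* occur in *Ifit3*. The reads were paired, and a read from such a stretch can be assigned only where its mate differs between the genes, so these shares hold for single reads and the split between the genes is uncertain. The ratio of *Ifit3* to *Ifit3b* was 4.34, 4.97 and 3.04 in the control-labelled libraries, and 3.05, 2.98 and 3.14 in the mutant-labelled ones, and the groups overlapped.

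*Ifit2* (GSMG0019619, plus strand, 34550694 to 34576534) was the most even member. It had 2666, 3298 and 2722 in the control-labelled and 24606, 18679 and 22601 in the mutant-labelled libraries. The groups did not overlap, and both held a narrow range. The log2 fold change of 2.92 (SE 0.13, adjusted p = 3.9e-06 by limma) was the smallest of the family but the one with the smallest error, and ranked 1397th of all tested genes.

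The 2 relatives of *Ifit1* gave far fewer reads. *Ifit1bl1* (GSMG0020322, minus strand) had 26.7, 62.4 and 20.3 in the control-labelled and 1911, 1247 and 1620 in the mutant-labelled libraries, with the log2 fold change at 5.55 (SE 0.40, adjusted p = 3.18e-05 by limma). Its span in the table, from 34592888 to 34662425, runs over *Ifit3b* and *Ifit1* on the other strand and *Ifit1bl2* on its own, whereas the GENCODE model of the gene ends at 34601956. *Ifit1bl2* (GSMG0020323, minus strand, 34617049 to 34640744) had 33.3, 46.3 and 2.53 in the control-labelled and 2232, 1637 and 1744 in the mutant-labelled libraries. Its log2 fold change was 6.70 (SE 0.84, adjusted p = 0.000546 by limma). The lowest of these values stands for 2 reads. The cDNA was strand-oriented, but whether the counting used the strand is not given in the sources used here. Reads of *Ifit1bl1* were thus not told apart from those of overlapping neighbours. *Ifit1bl2* lies inside the *Ifit1bl1* span on the same strand, so these 2 were not told apart either. Its 1 neighbour on the other strand had 9.89 in mutant-labelled replicate 3 and 0 in every other library. *Ifit1bl2* also shares sequence with *Ifit1*. Among stretches of the read length, 2.02% of those in *Ifit1* occur in *Ifit1bl2*, and 1.58% of those in *Ifit1bl2* occur in *Ifit1*. Mutant-labelled replicates 1 to 3 had 115548, 62138 and 86274 reads on *Ifit1*, against 3068, 1697 and 1763 on *Ifit1bl2*. How much of the *Ifit1bl2* rise came from shared stretches was not tested.

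**Figure D1:**
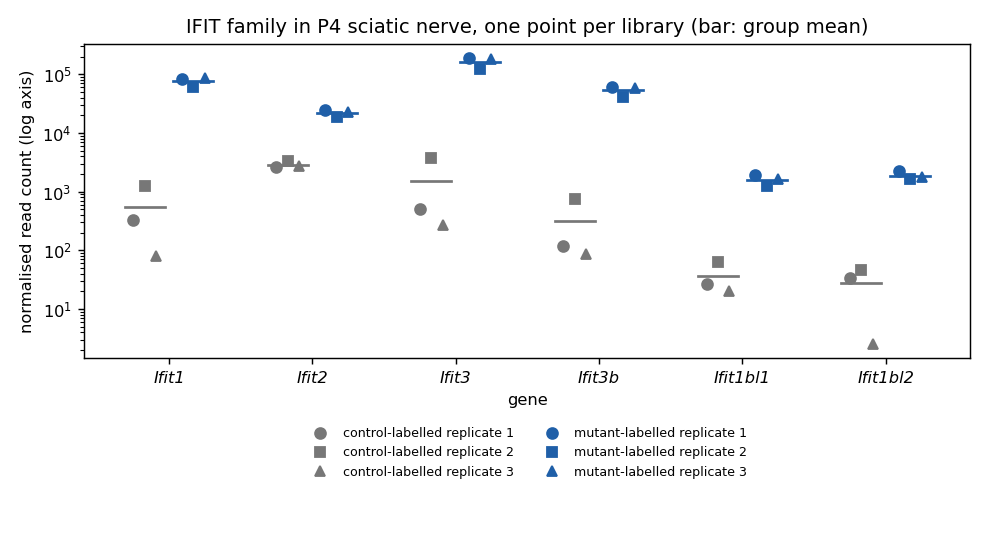
Normalised read count (log axis) of the 6 IFIT genes in each of the 6 libraries, grey for control-labelled and blue for mutant-labelled, with a symbol per replicate number and a bar at each group mean. All blue points of a gene lie above its grey points, the grey points of *Ifit2* lie closest together, and the grey square (control replicate 2) is the highest grey point of each gene.

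For 5 of the 6 members, *Ifit2* being the exception, the spread was wider among the control-labelled libraries. Control replicate 2 was the highest control for 6 of 6 members, as for 30.5% of tested genes. It stood 9.50 times above the mean of the other 2 controls for *Ifit3*, 7.23 times for *Ifit3b*, 6.02 times for *Ifit1* and 1.22 times for *Ifit2*. The coefficient of variation among controls was 12.1% for *Ifit2* and 62.3 to 128% for the other members, against 13.7 to 21.8% for the 6 members among mutant-labelled libraries. Without control replicate 2, the log2 fold changes were 8.86 for *Ifit1*, 3.02 for *Ifit2*, 8.76 for *Ifit3*, 9.0 for *Ifit3b*, 6.02 for *Ifit1bl1* and 7.40 for *Ifit1bl2*. Each was larger than with all libraries. Without control replicate 3, the lowest control for 5 of the 6 members, each was smaller, and the 5 members other than *Ifit2* had 6.88 for *Ifit1*, 6.87 for *Ifit3*, 7.47 for *Ifit3b*, 5.23 for *Ifit1bl1* and 5.53 for *Ifit1bl2*. In both cases 6 of 6 members were called. Among the mutant-labelled libraries, replicate 2 was the lowest for every member.

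The family took 0.00830 ± 0.00495% of the reads on genes in the control-labelled and 0.561 ± 0.114% in the mutant-labelled libraries (SD, n = 3 each). Its make-up differed as well. *Ifit2* gave 72.3, 36.3 and 85.7% of family reads in control replicates 1 to 3, and 6.80, 7.62 and 6.48% in the mutant-labelled replicates. *Ifit3* gave 13.9, 40.7 and 8.38% of them among controls, but 51.8, 49.97 and 51.6% where the label was mutant. Most family reads thus came from *Ifit2* in 2 of the 3 controls and about equally from *Ifit2* and *Ifit3* in the other, while *Ifit3* led in all mutant-labelled libraries. *Ifit1* went from 8.37 ± 5.61% to 24.1 ± 0.7% and *Ifit3b* from 4.71 ± 3.01% to 16.7 ± 0.3% (SD, n = 3).

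**Figure D2:**
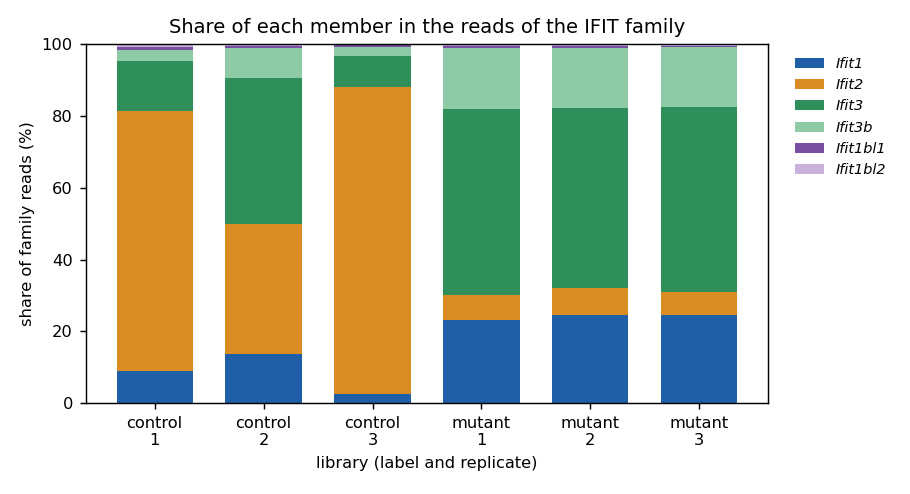
Share (%) of each member in the reads of the IFIT family, one stacked bar per library, with control-labelled libraries on the left and mutant-labelled ones on the right. The orange part (*Ifit2*) falls from 36.3% or more in the controls to at most 7.62% in the mutant-labelled libraries, whose 3 bars look alike.

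Divided by the exonic length of the GENCODE M21 model in kb, the levels can be ordered within a group. The reads were counted on constitutive regions of FAST DB genes, whose lengths were not used here, so these levels and their order are approximate. In the mutant-labelled libraries, *Ifit3* led with 93624 ± 20415 normalised reads per kb, followed by *Ifit1* with 28782 ± 5382 and *Ifit3b* with 26670 ± 5410, which overlapped. *Ifit2* came next with 5593 ± 768, and *Ifit1bl1* (705 ± 147) and *Ifit1bl2* (556 ± 94.1) overlapped at the end (SD, n = 3). In the control-labelled libraries, *Ifit3* had the highest mean (853 ± 1095 per kb), but its values of 293, 2115 and 153 overlapped those of *Ifit2*, *Ifit1* and *Ifit3b*, and it exceeded *Ifit2* in control replicate 2 only. *Ifit2* (737 ± 89.0 per kb) lay above *Ifit1* (207 ± 229) and *Ifit3b* (158 ± 184.7) without overlap, while *Ifit1* and *Ifit3b* overlapped. *Ifit1bl1* (16.1 ± 10.04) and *Ifit1bl2* (8.13 ± 6.68) overlapped at the end, below the other 4 members. On the per-length scale, *Ifit2* thus stood above *Ifit1* and *Ifit3b* in controls and below both in mutant-labelled libraries.

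Whether the members changed by different amounts was tested in all 15 pairs, from the log2 ratio of both members within each library, which needs no scaling between libraries. In 10 pairs, the 3 mutant-labelled ratios lay apart from the 3 control-labelled ones. An exact two-sided permutation test of 3 against 3 cannot go below p = 0.1, which these 10 pairs reached (0.15 after Benjamini-Hochberg adjustment over the pairs), so this test could not pass 0.05 for any pair and its p does not tell the pairs apart. The differences are therefore given with their SE over the libraries. The 10 pairs included *Ifit2* with each of the other 5 members. The log2 ratio of *Ifit2* to *Ifit3b* went from 4.49, 2.15 and 4.94 in the controls to -1.32, -1.14 and -1.34 in the mutant-labelled libraries, a difference of -5.13 (SE 0.87). That of *Ifit1* to *Ifit2* rose by 4.96 (SE 1.07). Among *Ifit1*, *Ifit3* and *Ifit3b*, the ratios overlapped. The differences in log2 fold change were 0.23 (SE 0.35) for *Ifit1* minus *Ifit3*, -0.17 (0.48) for *Ifit1* minus *Ifit3b* and -0.39 (0.21) for *Ifit3* minus *Ifit3b*, so differences of the size of these errors were not detectable. The ratios of *Ifit3* to *Ifit1bl2* and of *Ifit1bl1* to *Ifit1bl2* overlapped as well.

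Among tested genes with a symbol, the 5 with the profile most like the family's over the 6 libraries were *Isg15*, *Oas1a*, *Oasl2*, *Usp18* and *Cxcl9*. Likeness is the root mean square difference, in log2 units, between a gene's centred values and the mean centred profile of the 6 members. It was 0.11 for *Isg15*, which encodes a ubiquitin-like protein, 0.17 for *Oas1a* and 0.25 for *Oasl2*, of the oligoadenylate synthetase family, 0.29 for *Usp18*, which encodes a protease that removes ISG15, and 0.31 for the chemokine gene *Cxcl9*. The members themselves lay between 0.57 (*Ifit1bl1*) and 1.91 (*Ifit2*) from their own mean. *Isg15* had 722, 2635 and 375 in the control-labelled and 81558, 65130 and 80303 in the mutant-labelled libraries. As in the family, control replicate 2 was the highest control and mutant replicate 2 the lowest mutant-labelled library.

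**Figure D3:**
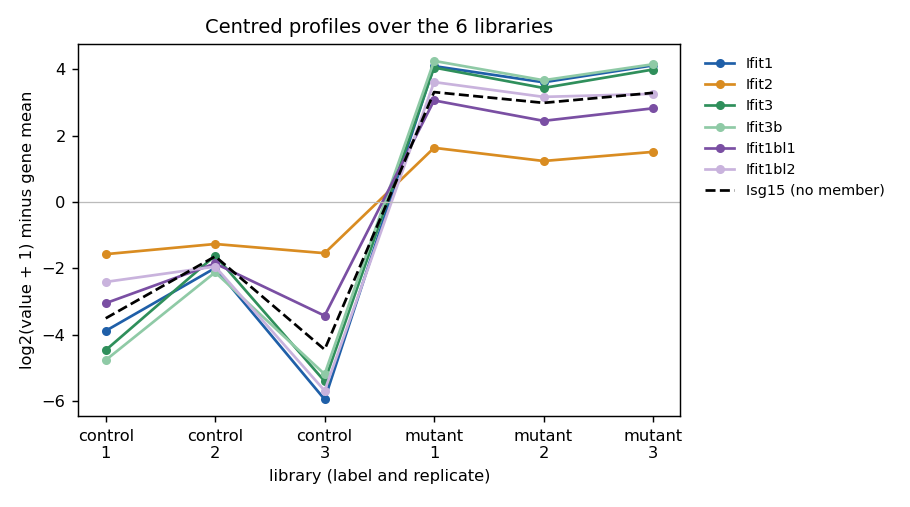
Log2 of the normalised read count plus 1, minus the gene's mean over the 6 libraries, for the 6 members (coloured lines) and for *Isg15* (dashed), with libraries on the horizontal axis by label and replicate. *Ifit2* stays nearest to 0, control replicate 2 is the highest control for every line, and *Isg15* runs within the spread of the members.

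The genes that induce interferon and carry its signal were read from a list of 17, from sensors to feedback inhibitors. Of these, 9 were called higher and 0 lower, with 8 not called, beside 13.9% of all tested genes called higher and 10.4% lower. Their median log2 fold change was 2.50, also with *Ifnb1* at its lower bound. By limma's unadjusted p alone, 15 of the 17 were at or under 0.05. *Ifnb1*, which encodes interferon beta, had no read in the control-labelled libraries and 466, 408 and 507 in the mutant-labelled ones, at least 139-fold higher (against 3 reads per library, counting error only). *Irf7*, a factor that drives interferon genes, went from 492, 1947 and 204 to 99343, 70931 and 75697, its log2 fold change being 7.12 (SE 0.67, adjusted p = 0.000115 by limma). *Usp18*, whose product dampens the interferon receptor, changed by 6.18 (SE 0.39, adjusted p = 1.85e-05 by limma).

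The RNA sensor genes *Ifih1* (MDA5), *Dhx58* (LGP2) and *Ddx58* (RIG-I) had log2 fold changes of 5.69, 5.49 and 4.42, and those of the ISRE-binding factors were 2.98 for *Stat2* and 2.94 for *Irf9*. *Ifit2* thus changed by about as much as both of these genes, and the other 5 members by more than either in the fitted values, a difference not tested. The feedback inhibitor *Socs1* changed by 2.50. The receptor and its kinases were not called. Values were -0.38 for *Ifnar1*, 0.75 for *Ifnar2*, 0.67 for *Jak1* and -0.57 for *Tyk2*. The adaptor and kinases upstream of interferon were not called either, with -0.20 for *Mavs*, 0.79 for *Tbk1*, 0.98 for *Ikbke* and 0.11 for *Irf3*, the smallest change of the list. *Ikbke* lay just under the 2-fold limit and was called on scaling to the same total (1.15) and without control replicate 2 (1.20) or mutant replicate 3 (1.17).

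**Figure D4:**
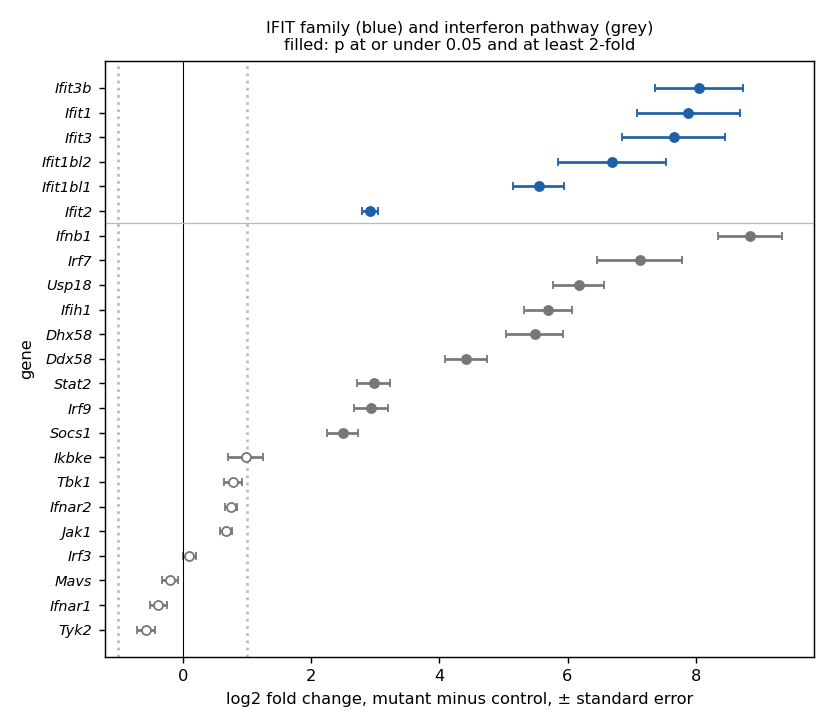
Log2 fold change (mutant-labelled minus control-labelled, horizontal axis) with its standard error for the 6 members (blue) and the 17 interferon pathway genes (grey), filled where called, with dotted lines at 2-fold. The members lie between 2.92 and 8.05, 9 grey points are filled, and the point of *Ifnb1* is a fitted value against no reads and no bound.

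The RNA caps that IFIT1 tells apart are made by the products of 5 listed genes. For this list, 1 gene was called higher and 0 lower, beside 13.9% and 10.4% of all tested genes. *Cmtr1*, the first cap ribose methyltransferase, was called higher, with values of 3167, 3740 and 3434 in the control-labelled and 10728, 7348 and 9263 in the mutant-labelled libraries. Its log2 fold change was 1.39 (SE 0.14, adjusted p = 0.000195 by limma), but its row also covers *Rnf8* and other overlapping genes, whose reads cannot be separated. The others were not called. Their log2 fold changes were 0.79 for *Cmtr2*, the second cap ribose methyltransferase, 0.56 for *Rngtt*, which adds the cap, 0.33 for *Rnmt*, which methylates its guanine, and -0.16 for *Ramac*, the cofactor of RNMT. *Rngtt* overlaps 8 genes on its strand.

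The 14 genes of eIF3, the initiation factor that IFIT proteins bind, gave 13 rows, since *Eif3j1* and *Eif3j2* share 1. None was called by limma, edgeR or DESeq2, where 24.2% of all tested genes were called by limma in either direction, although 6 had an unadjusted p at or under 0.05, and the median log2 fold change was 0.12. *Eif3c* came nearest at 0.97 (SE 0.12, adjusted p = 0.000536 by limma), and *Eif3i* had the smallest change at 0.07. *Eif3c* was called without control replicate 2 (1.01) or mutant replicate 2 (1.10).

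Within 500 kb of the cluster, the table lists 28 other rows, of which 14 were tested. Of these, 3 were called higher and 2 lower, beside 13.9% and 10.4% of all tested genes. Without control replicate 1, 5 were called higher and 2 lower. *Ch25h*, which encodes cholesterol 25-hydroxylase, lies 75.1 kb before the cluster and had 26.7, 20.8 and 2.53 in the control-labelled and 266, 276 and 185.9 in the mutant-labelled libraries, with the log2 fold change at 4.22 (SE 0.74, adjusted p = 0.00301 by limma). *Fas*, the gene of a death receptor, 223 kb before it, went from 95.5, 96.4 and 115 to 669, 832 and 825, its log2 fold change being 2.91 (SE 0.20, adjusted p = 2.41e-05 by limma). The 3rd is a locus of 46 bases without a symbol (GSMG0066950, 34611118 to 34611163) inside *Ifit3b* on its strand. It had at most 3 reads in each control-labelled library and was at least 9.04-fold higher, and its reads cannot be told from those of *Ifit3b*.

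The gene next to *Ifit2* did not follow the cluster. *Lipa*, which encodes lysosomal acid lipase and ends 23.2 kb before *Ifit2*, had 1879, 1571 and 1617 in the control-labelled and 862, 938 and 920 in the mutant-labelled libraries. All mutant-labelled values were lower, with a log2 fold change of -0.89 (SE 0.12, adjusted p = 0.000741 by limma), which is under 2-fold. On the other side, distances are from the end of the deposited *Ifit1bl1* span, so they understate those from *Ifit1*, which ends at 34650009. *Slc16a12*, a transporter gene 5.98 kb past this end (from 34668406), changed by 0.69 (SE 0.53) with overlapping groups. *Pank1*, a gene of coenzyme A synthesis 145 kb past the same end, fell by 1.88 on the log2 scale (SE 0.21, adjusted p = 0.000292 by limma). The other gene called lower, GSMG0019624, has no symbol and had few reads. *Stambpl1* (0.53), *Acta2* (1.37) and *Kif20b* (0.28) were not called. *Acta2* was called without control replicate 1 (1.98) or mutant replicate 1 (2.13), and *Slc16a12* without control replicate 1 (1.31). *Lipn*, *Lipm*, *Ankrd22*, *Mir107* and *Mir1950* were too low to test.

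**Figure D5:**
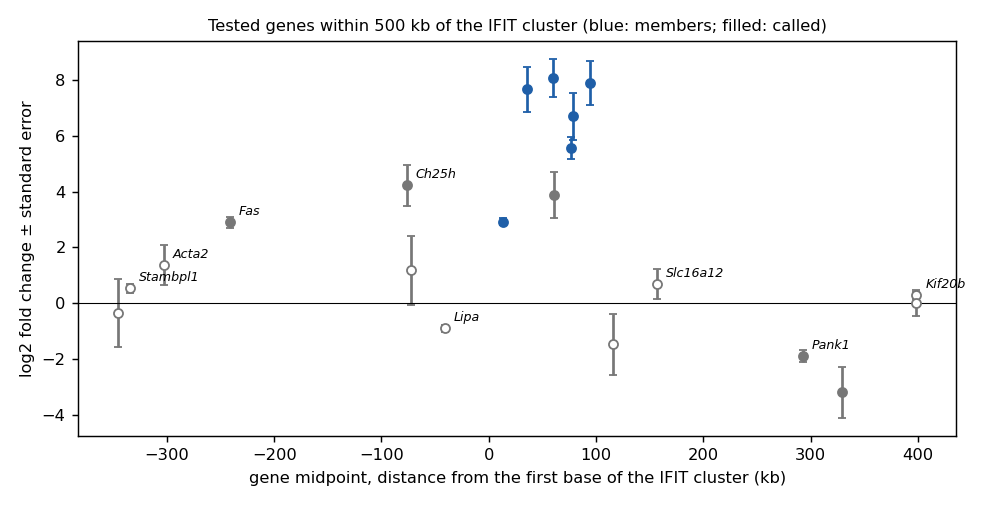
Log2 fold change (mutant-labelled minus control-labelled) with its standard error of each tested gene within 500 kb of the IFIT cluster, against the distance of the gene's midpoint from the first base of the cluster in kb. The 6 members (blue) lie between 2.92 and 8.05, above their neighbours with a symbol except that *Ch25h* exceeds and *Fas* nearly equals *Ifit2*.

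The nerve's cell markers also moved with the label, and their part in the rise of the family was not tested. Counts are to be read beside the 13.9% of all tested genes called higher and 10.4% called lower. Of 8 Schwann cell markers, 4 were called lower, and none of the 8 was without reads in any library. Of 8 macrophage markers, 2 were called higher and 4 lower, with sums of 11518 to 14984 in control-labelled and 5382 to 7497 in mutant-labelled libraries. Of 7 tested T and NK cell markers, 5 were called higher, with summed values of 109 to 217 in control-labelled and 493 to 774 in mutant-labelled libraries. Among them, *Cd8a* and *Ncr1* had no read in any control-labelled library. Of 6 muscle markers, 5 were called higher, from 6110 to 32211 in sum to between 40330 and 306302, with mutant replicate 3 the highest. 6 of 6 erythroid and 2 of 6 fibroblast markers were called lower, 1 of 6 perineurial markers was called higher and 1 lower, and 1 of 6 plasmacytoid dendritic and B cell markers was called lower. None of 6 endothelial and 4 adipocyte markers was called by limma, with 3 and 0 at an unadjusted p at or under 0.05. The call among plasmacytoid dendritic and B cell markers was lost by edgeR and by DESeq2, 1 endothelial marker was called without control replicate 1, and without mutant replicate 3, 2 macrophage markers in place of 4 and 1 fibroblast marker in place of 2 were called lower. 1 macrophage marker in place of 2 was called higher without control replicate 3, without mutant replicate 1 and on scaling to the same 75th percentile. T and NK cell markers called fell to 4 under some settings, among them leaving out control replicate 3, mutant replicate 1 or mutant replicate 3.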

How the data were processed

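Sciatic nerves of 3 control and 3 mutant animals at P4 gave 1 library each. The authors mapped reads to mm10 with STAR 2.4.0, counted those on constitutive regions of FAST DB genes and deposited a signal, the count of reads divided by a DESeq2 size factor. In every library, 100% of values were whole multiples (tolerance 0.01) of the value of 1 read (0.727 to 1.27), so the reads were recovered for edgeR 4.0.16 and DESeq2 1.42.0 as alternatives. limma 3.58.1 (R 4.3.3, lmFit, eBayes with trend) was fitted on log2(value + 1) for genes with a mean of at least 10 in 1 group, which understates the change of low genes, with Benjamini-Hochberg adjustment over them all. A call needs an unadjusted p at or under 0.05 and at least 2-fold. Errors are SDs within a group or standard errors of the fit. Floors hold for counting error alone, because reads copied by PCR are not separate molecules.

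The members, lists and rules were chosen with earlier results of these data known. Named are all members, *Adar*, and the largest 3 called and the smallest change of each list. Also named are all genes of lists of up to 6 (marker lists are given as counts). Genes with a symbol within 500 kb and the 5 most alike genes with a symbol complete them. Other pathway genes, *Eif3c* and loci without a symbol were named after their values were seen. Sequences are RefSeq's, lengths GENCODE M21's. The interferon pathway list leaves out 1 gene that is not reported here.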

Additional observations from a re-analysis of the deposited data

How the results depend on the processing

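Under 12 other settings and without each library in turn, 18 alternatives in all, 6 of 6 members were called, and none of the called genes examined one by one (members, lists other than markers, neighbours and most alike genes) changed direction. Genes that were not called and lay near 0 could change sign, such as *Ramac* and 3 eIF3 genes (*Eif3h*, *Eif3k* and *Eif3l*) on scaling to the same total. Over the settings with all libraries, the log2 fold changes spanned 7.12 to 8.04 for *Ifit1*, 2.85 to 3.08 for *Ifit2*, 6.78 to 7.82 for *Ifit3*, 7.40 to 8.21 for *Ifit3b*, 5.19 to 5.72 for *Ifit1bl1* and 5.90 to 6.86 for *Ifit1bl2*. Leaving out 1 library gave values between 6.88 and 8.86 for *Ifit1*, 6.87 and 8.76 for *Ifit3*, 7.47 and 9.0 for *Ifit3b*, 2.83 and 3.03 for *Ifit2*, 5.23 and 6.02 for *Ifit1bl1* and 5.53 and 7.40 for *Ifit1bl2*, the ends being without control replicates 3 and 2 except for *Ifit2* (without mutant replicates 1 and 2). The largest adjusted p of a member under any alternative was 0.0103 (*Ifit1bl2*). Scaling to the same total raised the median of all genes to 0.19 from 0.03 on the log2 scale and the share of higher calls to 66.2% from 57.3%. It also called 1 eIF3 gene (*Eif3c*, 1.13) in place of 0, and leaving out 1 library gave 0 to 1. With a minimum mean of 50, 3 genes around the cluster were called in place of 5, as fewer were tested. Same-numbered control and mutant libraries did not deviate together (correlations of -0.06, -0.06 and 0.01 across genes). With 3 libraries per group, this cannot show whether same-numbered animals shared a litter or a processing step. With a replicate block, 6149 genes were called in place of 6251, and 6 of 6 members. Depth limits the control values of *Ifit1bl1* (16 to 66 reads) and *Ifit1bl2* (2 to 49 reads).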
